A study of Mus musculus with 18 samples.

Results

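The transcripts of 9 genes that remove uracil from DNA and repair the resulting gap were followed across 6 groups of mouse leukemia cells carrying a base editor, a disabled base editor or a nickase alone. The genes were Ung, Smug1, Tdg, Mbd4, Apex1, Polb, Xrcc1, Lig3 and Parp1, a list of names from the pathway that acts on deaminated cytosine, with no threshold on their values. They are 9 of the 56748 gene IDs in the count table, and all 9 were among the 14985 genes that passed the filter on low counts. The cells were RN2, an acute myeloid leukemia line of the mouse driven by MLL-AF9 and NrasG12D, and their polyA RNA was sequenced with a directional library kit, 3 libraries in each group. All cells received a lentiviral construct and were sorted on day 5 after transduction. seBE, the small-molecule controlled base editor, was given 1 nM rapamycin or vehicle for 24 h before sorting. Intact BE, the base editor with an active evoA1 deaminase that needs no inducer, was given the same drug or vehicle. The catalytic mutant is the editor whose deaminase was inactivated, written E63A in the column names, and nCas9 is the Cas9 nickase without a deaminase. The labels of the nCas9 and catalytic mutant libraries also name vehicle for 24 h, while the treatment protocol names drug or vehicle only for intact BE and seBE. The promoter that drives the constructs, any guide RNA, and whether the libraries of a group came from separate transductions are not stated in the labels. Each library is titled a biological replicate, and since separate cultures are not named, the tests speak to the library-to-library spread only.

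A cytosine base editor deaminates cytosine to uracil in DNA. Cells remove uracil by base excision repair: a glycosylase cuts out the base, an endonuclease opens the backbone at the empty site, a polymerase fills the gap and a ligase seals it, while a poly(ADP-ribose) polymerase senses the break. Base editors of this kind are commonly built with a bacteriophage inhibitor that blocks the Ung protein, and the labels do not say whether these constructs carry it. The study's stated purpose was to look in gene expression for mechanisms of base editor toxicity, and these genes bear on whether cells change their uracil repair transcripts when an editor is present.

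Library totals ran from 13835979 to 23284932 counts. All 9 markers fixed for MLL-AF9 myeloid leukemia cells were present, with Meis1 the lowest at 48.7 CPM (counts scaled to a common library size) or more in every library. Of 13 markers of lymphoid, erythroid, fibroblast and endothelial cells, Cd3e, Cd3g, Col1a2, Pdgfra and Kdr had 0 counts in all libraries, and the highest single value was 1.56 CPM, for Klf1. nCas9 replicate 2 stood apart on the second principal component, at 63, where the other libraries lay between -24.5 and 21.5. On the first component it stood at 55.2, against 29.5 and 23.6 for the other nCas9 libraries. Catalytic mutant replicate 3 stood at -0.556 on the first component, where the other mutant libraries lay at 17.5 and 20.2, and results that change without these 2 libraries are given below both ways. Replicate 3 of seBE under rapamycin lay apart from its own group too, at -20 on the first component against 1.45 and 8.11 and at 11 on the second against -8.73 and -10.9, and values without it are given where a call changes. Intact BE under rapamycin was also spread, with replicate 2 at -15.5 on the first component against -33.6 and -40.5. On the second component that library stood at 4.33 against 21.5 and 19.4. The share of counts from the 13 mitochondrially encoded protein genes differed between groups, at 1.78% ± 0.12 in intact BE under vehicle, 4.32% ± 0.856 in the catalytic mutant and 4.86% ± 0.57 in nCas9 (SD, n = 3 each). It was 1.99% ± 0.126 in intact BE under rapamycin, 3.03% ± 0.771 in uninduced seBE and 3.41% ± 0.837 in induced seBE. The slope of log2 level on transcript length also differed, at 0.0495 ± 0.0236 per doubling of length in intact BE under vehicle, -0.0434 ± 0.0202 in the catalytic mutant and -0.0588 ± 0.0182 in nCas9 (SD, n = 3 each). It was 0.0658 ± 0.0153 in intact BE under rapamycin, -0.0195 ± 0.0217 in uninduced seBE and 0.00643 ± 0.0246 in induced seBE. Each difference below was therefore also computed after a trend on length and GC content was removed.

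The 9 transcripts spanned a wide range of levels. Per kilobase of annotated exon, Apex1, the main endonuclease at abasic sites, averaged 89.5 ± 6.28 CPM per kb (SD over 18 libraries) and Parp1, the break sensor that makes poly(ADP-ribose), averaged 47.8 ± 5.34 CPM per kb. Tdg, a glycosylase that acts on uracil or thymine paired with guanine and on oxidised methylcytosine, followed at 14.9 ± 2.22 CPM per kb. Next came Lig3, the ligase of single-strand break repair, at 9.53 ± 1.38 CPM per kb, its scaffold partner Xrcc1 at 8.52 ± 1.24, and Polb, the gap-filling polymerase, at 7.1 ± 0.803. Mbd4, a glycosylase with a methyl-CpG binding domain, averaged 6.28 ± 0.745 CPM per kb, Ung, the main uracil glycosylase of replicating cells, 4.95 ± 0.518, and Smug1, a second uracil glycosylase, 2.03 ± 0.309. Apex1 lay above all the others in every library, Parp1 above all but Apex1, and Smug1 below all the others. Neighbours in the order Tdg, Lig3, Xrcc1, Polb, Mbd4 and Ung overlapped over the 18 libraries. Ung, at 4.01 CPM per kb or more, did not overlap with Smug1, at 2.88 or less. Ung makes a nuclear and a mitochondrial form from separate start sites, and counts per gene do not separate them.

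Of the 9 genes, 4 differed among the 6 groups in a single test over all groups, in which 31.4% of all genes tested passed. These were Tdg (edgeR quasi-likelihood F = 9.37, adjusted p = 0.000162), Parp1 (F = 8.71, adjusted p = 0.000274), Xrcc1 (F = 8.07, adjusted p = 0.000461) and Lig3 (F = 7.55, adjusted p = 0.000715). Group means differed by 1.56 times at most for Tdg, 1.43 times for Xrcc1 and Lig3, and 1.4 times for Parp1. The other 5 genes did not pass, with adjusted p = 0.149 for Mbd4, 0.208 for Polb, 0.287 for Apex1, 0.722 for Ung and 0.829 for Smug1. Their group means differed by 1.14 to 1.27 times. With the length and GC trend removed Xrcc1 no longer passed (adjusted p = 0.0775) and Apex1 did (0.00599), and without nCas9 replicate 3 Polb passed (0.0196). In bulk RNA, a change in the mix of cells and a change of RNA per cell cannot be told apart, and CPM is a share of each library's RNA.

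**Figure D1:**
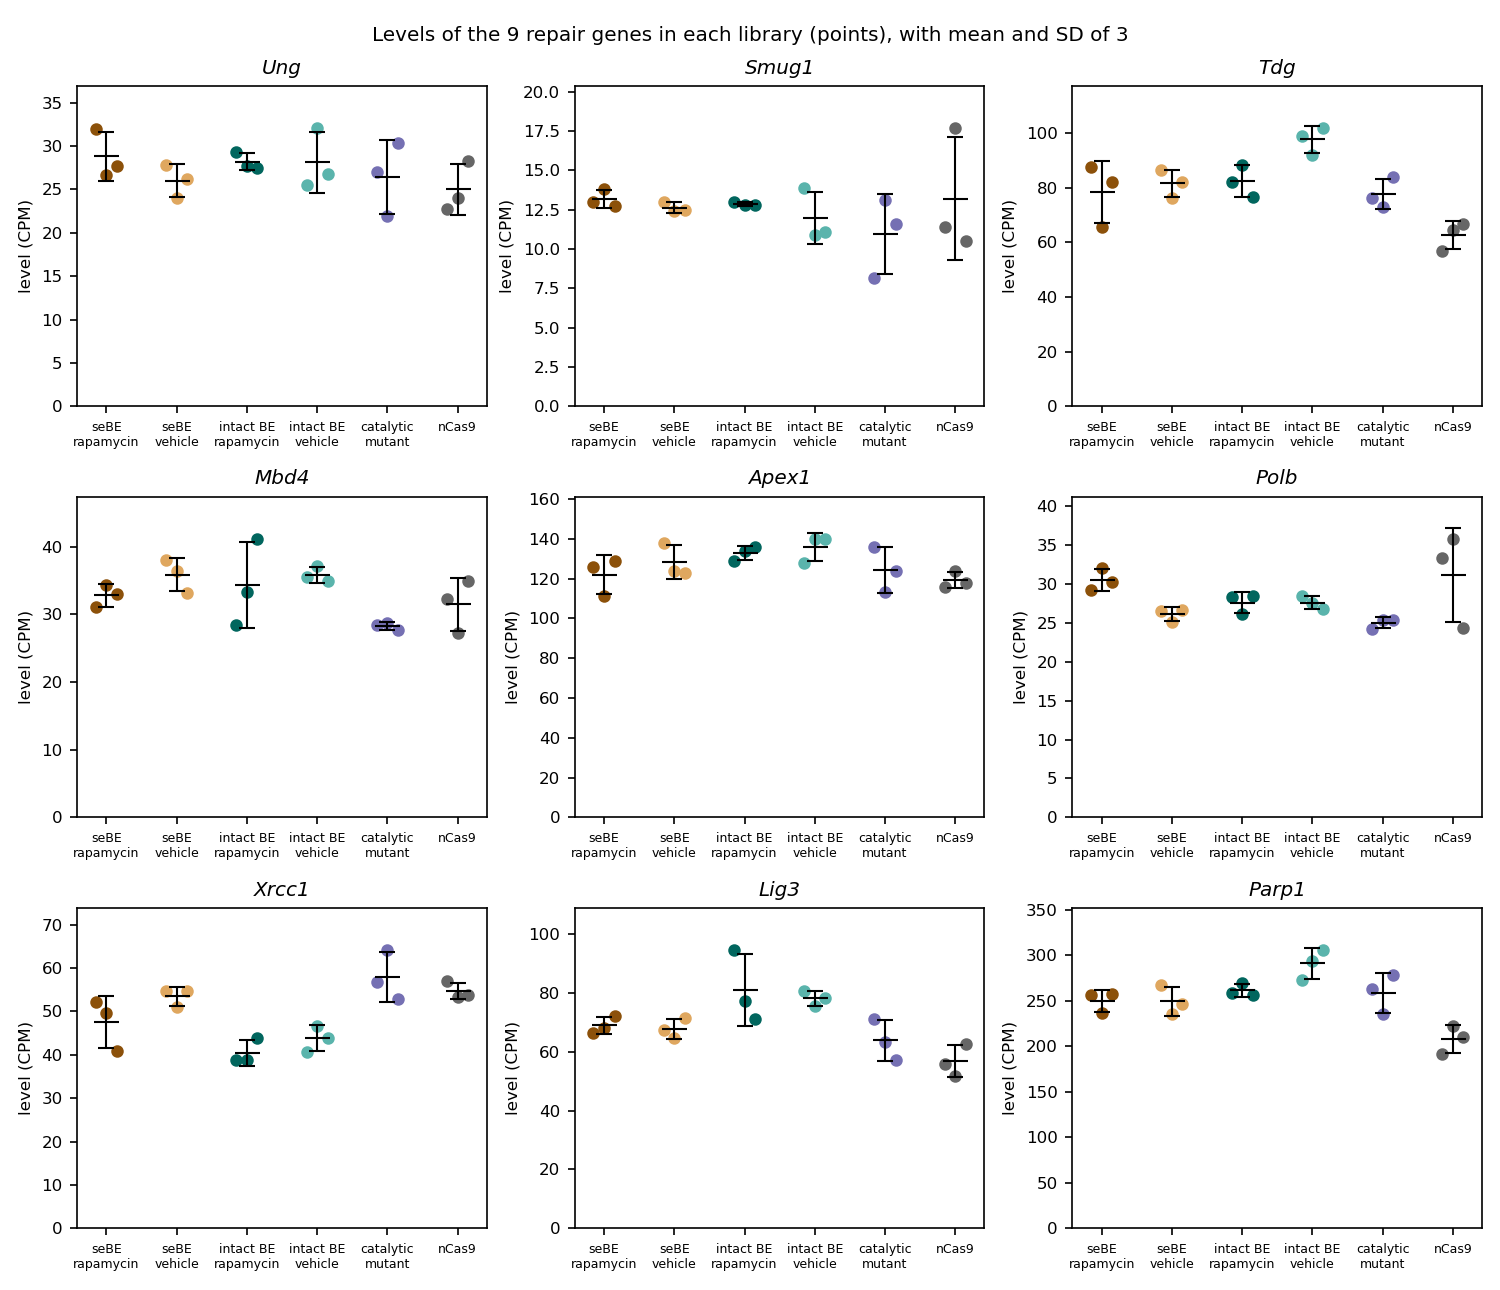
Level in CPM of each of the 9 genes (vertical axis, from 0) in the 18 libraries, by group. Points are libraries, and the bar and whiskers are the mean and SD of 3. Tdg and Parp1 are highest in intact BE under vehicle and lowest in nCas9, Xrcc1 is lowest in the intact BE groups, and Ung and Smug1 overlap across all 6 groups.

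Intact BE under vehicle against nCas9 asks how an active editor differs from its nickase. Tdg, Parp1 and Lig3 were higher with intact BE and Xrcc1 was lower, which makes 4 of 9 genes called, against 23.0% of all genes tested. By direction it was 3 of 9 higher, against 13.1% of all genes, and 1 of 9 lower, against 9.83%. The median log2 fold change of the 9 was 0.18, beside -0.04 over all genes tested. Tdg had 99.1, 92.2 and 102 CPM in intact BE libraries, against 57, 64.6 and 66.9 CPM in nCas9 libraries. The groups were far from overlapping, with every intact BE library above 90 CPM. The log2 fold change of Tdg was 0.64 ± 0.0945 (SE, edgeR adjusted p = 1.06e-05), the largest of the 9 genes in any of the 10 comparisons.

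Parp1 had 273, 294 and 306 CPM in intact BE libraries, against 192, 222 and 210 CPM in nCas9 libraries. The gap between the groups was wider than the range within either of them. The log2 fold change was 0.48 ± 0.0748 (SE, edgeR adjusted p = 1.90e-05). Lig3 had 80.6, 75.6 and 78.2 CPM in intact BE libraries, against 55.9, 51.8 and 62.6 CPM in nCas9 libraries, again without overlap, and a log2 fold change of 0.46 ± 0.0972 (SE, edgeR adjusted p = 0.000668). Lig3 shares 1826 bases of exon with Rffl, a gene on the opposite strand, and the labels do not say whether the count used strand. Rffl itself stood at 85.2 ± 2.63 CPM in intact BE and 85.9 ± 6.52 CPM in nCas9 (SD, n = 3 each). Tdg has processed pseudogenes with 98.7% or more of identical bases in their longest match. The most counted of them, Gm9855, held 196 counts over all libraries, against 26662 for Tdg. The rule for reads that match several places is not given, so these counts do not show how shared reads were treated.

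Xrcc1, the scaffold that holds the ligase and polymerase at the break, went the other way. It had 40.7, 46.7 and 43.9 CPM in intact BE libraries, against 56.9, 53.4 and 53.8 CPM in nCas9 libraries, and all 3 intact BE libraries lay below all 3 nCas9 libraries. The log2 fold change was -0.32 ± 0.101 (SE, edgeR adjusted p = 0.0179). This call ended without nCas9 replicate 1 (adjusted p = 0.0703), without intact BE replicate 1 (adjusted p = 0.102) and after the length and GC trend was removed, where the value for Xrcc1 was -0.26 (adjusted p = 0.0652). The longest Xrcc1 transcript has 59.3% GC, the highest of the 9 genes, which otherwise lie between 43.5% and 52.7%.

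The glycosylases Ung, Smug1 and Mbd4 did not pass in this comparison. Ung had 25.5, 32.1 and 26.8 CPM in intact BE libraries, against 22.7, 24 and 28.3 CPM in nCas9 libraries. These ranges overlap, and the log2 fold change was 0.17 with a 95% interval of -0.10 to 0.43 (edgeR adjusted p = 0.394). Smug1 had 13.9, 10.9 and 11.1 CPM in intact BE, against 11.4, 17.7 and 10.5 CPM in nCas9, a log2 fold change of -0.13 with an interval of -0.51 to 0.25. One nCas9 library, replicate 2, was the highest of all 18 for Smug1, and without it the log2 fold change of Smug1 was 0.13. Mbd4 averaged 35.9 ± 1.19 CPM in intact BE and 31.5 ± 3.96 CPM in nCas9 (SD, n = 3 each), with a log2 fold change of 0.18 and an interval of -0.06 to 0.43.

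Of the downstream enzymes, Apex1 had 128, 140 and 140 CPM in intact BE libraries, against 116, 124 and 118 CPM in nCas9 libraries. The groups do not overlap, as was so for 38.0% of all genes tested, but the log2 fold change of 0.19 ± 0.0788 (SE) gave an edgeR adjusted p = 0.0835. Apex1 is the shortest of the 9 transcripts, at 1.42 kb, of which 877 bases lie opposite exons of Pip4p1, at 53.3 ± 2.13 CPM in intact BE and 58.6 ± 7.28 CPM in nCas9, so its level per kilobase and its changes carry the same doubt about strand as Lig3. It passed after the length and GC trend was removed, at 0.34 (adjusted p = 0.00256). Polb had 28.5, 27.5 and 26.8 CPM in intact BE libraries, against 33.3, 35.8 and 24.3 CPM in nCas9 libraries, with a log2 fold change of -0.17 and an interval of -0.42 to 0.08. The nCas9 libraries disagreed among themselves here, replicate 3 lying far below the other two. Without nCas9 replicate 3, Polb was lower in intact BE (log2 -0.32, edgeR adjusted p = 0.0422), in the catalytic mutant (log2 -0.46, adjusted p = 0.0171) and in uninduced seBE (log2 -0.40, adjusted p = 0.034).

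**Figure D2:**
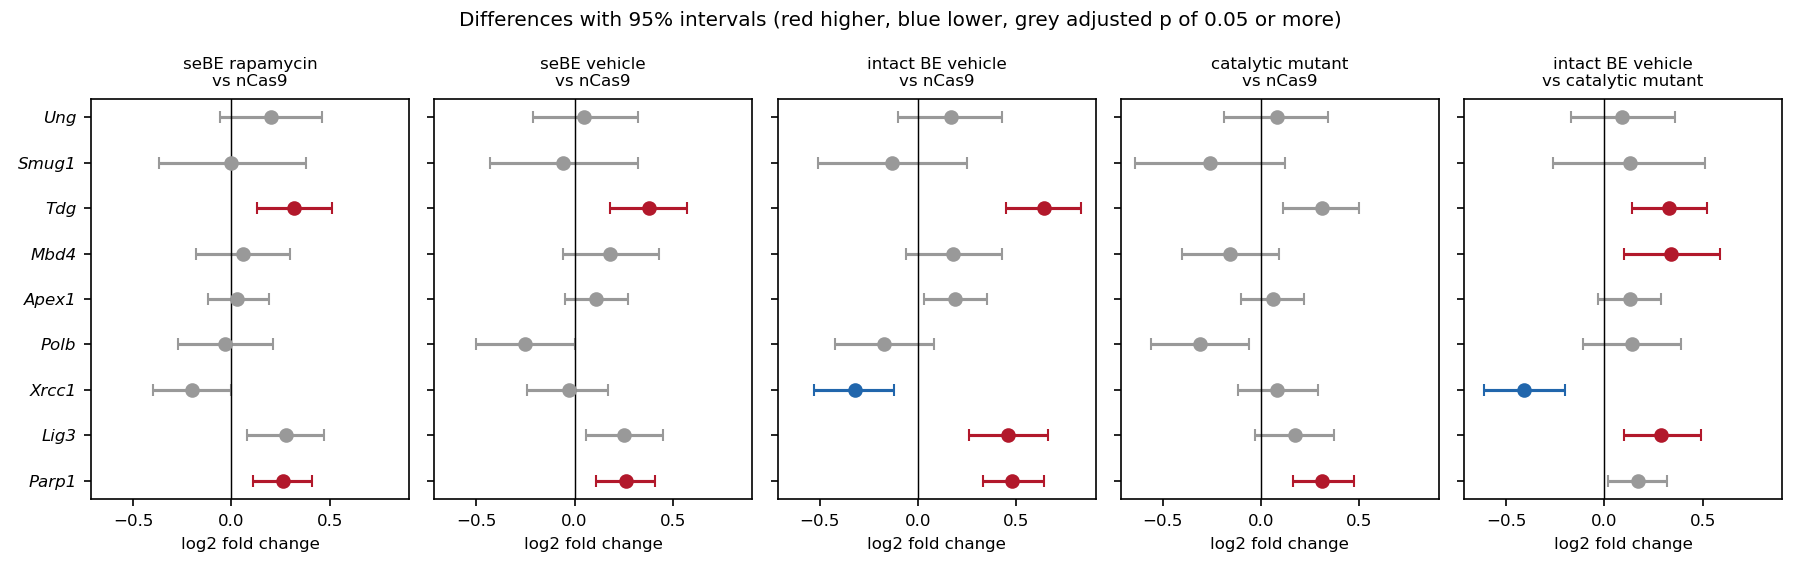
Log2 fold change (horizontal axis) of each of the 9 genes in 5 comparisons, with 95% intervals from the edgeR fit. Red marks genes that were higher and blue genes that were lower at an adjusted p under 0.05, and grey marks the rest. Tdg lies to the right of 0 in all 5 panels, and Xrcc1 is blue in both panels with intact BE.

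The bases just before the start of transcription are shown for Tdg, Parp1, Lig3 and Xrcc1, called in intact BE under vehicle against nCas9. Apex1, which shares a motif with the first 3, is shown too. Mbd4, called higher in intact BE against the catalytic mutant, is not shown and holds no copy of that motif. The windows are the 250 bases before the start in RefSeq's annotation of GRCm38.p6, an older build than the GRCm39 of the counts. A sequence was found for 8 of the 9 genes. Capitals mark CACGTG, the palindromic E-box that factors of the MYC and USF families bind.
Tdg (chr10:82629588-82629837, plus strand): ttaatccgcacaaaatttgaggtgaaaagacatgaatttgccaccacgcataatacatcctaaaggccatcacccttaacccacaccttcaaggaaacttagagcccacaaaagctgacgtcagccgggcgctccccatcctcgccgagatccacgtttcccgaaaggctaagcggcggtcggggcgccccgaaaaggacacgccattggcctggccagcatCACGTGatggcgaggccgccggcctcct
Parp1 (chr1:180568641-180568890, plus strand): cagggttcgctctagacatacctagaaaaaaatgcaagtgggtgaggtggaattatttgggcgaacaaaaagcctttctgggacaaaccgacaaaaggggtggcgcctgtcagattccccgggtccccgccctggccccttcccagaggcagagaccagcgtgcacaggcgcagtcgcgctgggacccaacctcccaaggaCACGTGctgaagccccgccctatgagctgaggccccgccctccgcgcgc
Lig3 (chr11:82780859-82781108, plus strand): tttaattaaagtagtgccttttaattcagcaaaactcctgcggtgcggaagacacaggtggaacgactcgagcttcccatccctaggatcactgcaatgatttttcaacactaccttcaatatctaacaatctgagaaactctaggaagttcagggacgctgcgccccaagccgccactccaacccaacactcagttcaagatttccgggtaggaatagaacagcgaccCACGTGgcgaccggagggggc
Apex1 (chr14:50924699-50924948, plus strand): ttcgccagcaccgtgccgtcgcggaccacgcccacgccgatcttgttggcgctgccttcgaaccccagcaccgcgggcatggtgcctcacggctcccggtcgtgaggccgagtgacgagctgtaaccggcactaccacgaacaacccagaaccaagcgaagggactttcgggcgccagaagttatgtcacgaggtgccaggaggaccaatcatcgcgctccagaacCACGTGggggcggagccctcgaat
Xrcc1 (chr7:24546449-24546698, plus strand): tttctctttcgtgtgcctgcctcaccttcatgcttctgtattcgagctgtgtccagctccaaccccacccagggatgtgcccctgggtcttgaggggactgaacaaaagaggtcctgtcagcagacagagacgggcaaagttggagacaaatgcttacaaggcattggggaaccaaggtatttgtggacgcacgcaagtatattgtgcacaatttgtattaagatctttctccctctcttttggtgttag

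CACGTG began 28 bases before the start in Tdg, 49 in Parp1, 21 in Lig3 and 24 in Apex1. It was found in 4 of the 8 promoters, against 6.02% of all 32851 promoters of this length and 8.2% of the 12623 promoters of genes tested here. The word itself holds a CG. The windows of Tdg, Parp1, Lig3 and Apex1 held 19, 16, 12 and 28 CG pairs, beside a median of 6 over all promoters. The shares given are not matched for CG content. Xrcc1, Ung, Mbd4 and Smug1 held no CACGTG in this window, and had 5, 10, 22 and 14 CG pairs. The Xrcc1 window had the lowest GC content of the 8, at 49.2%. Whether the annotated starts are those used in these cells was not tested. The other words searched, on both strands, were GGGCGG (GC box), found in 32.7% of all promoters and in those of Parp1, Ung, Mbd4 and Apex1, and CCAAT, found in 33.8% and in those of Mbd4, Xrcc1, Tdg, Apex1 and Smug1. The E2F words TTTGGCGC, TTTCCCGC and TTTGGCGG, held by 0.417%, 0.895% and 0.444% of all promoters, and the TATA box TATAAA, held by 12.4%, were in none of the 8. A match of letters is a description of the window and shows no binding, and the E-box was singled out after the matches were seen.

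Setting intact BE under vehicle beside its inactivated form compares an active with an inactive deaminase in the same editor. Whether both constructs were equally expressed was not tested. Tdg, Mbd4 and Lig3 were higher with the active deaminase and Xrcc1 was lower, 4 of 9 genes against 21.0% of all genes tested (3 higher against 11.6%, 1 lower against 9.33%), while Parp1, Ung, Smug1, Apex1 and Polb did not pass, the last 4 with log2 fold changes of 0.09, 0.13, 0.13 and 0.14. Mbd4 had 35.6, 37.2 and 34.9 CPM in intact BE libraries, against 28.5, 28.7 and 27.7 CPM in catalytic mutant libraries. Both groups were tight and did not overlap, as was so for 37.8% of all genes tested, and the log2 fold change was 0.34 ± 0.121 (SE, edgeR adjusted p = 0.039). Xrcc1 had 40.7, 46.7 and 43.9 CPM in intact BE libraries, against 56.7, 64.2 and 52.9 CPM in catalytic mutant libraries, a log2 fold change of -0.41 ± 0.101 (edgeR adjusted p = 0.00362). Again no intact BE library reached the lowest library of the other group.

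Tdg had 99.1, 92.2 and 102 CPM in intact BE libraries, against 76.2, 73.1 and 84 CPM in catalytic mutant libraries (log2 0.33 ± 0.0941, edgeR adjusted p = 0.00982). Lig3 averaged 78.1 ± 2.47 CPM in intact BE and 63.8 ± 6.9 CPM in the mutant (log2 0.29 ± 0.0973, edgeR adjusted p = 0.0284). Parp1 averaged 291 ± 16.9 CPM in intact BE and 259 ± 21.7 CPM in the mutant, with overlapping libraries and a log2 fold change of 0.17 (edgeR adjusted p = 0.108). With length and GC content accounted for, the log2 fold changes of the 4 called genes were 0.25 for Tdg (adjusted p = 0.11), 0.15 for Mbd4 (0.558), 0.21 for Lig3 (0.218) and -0.12 for Xrcc1 (0.563), all short of the threshold, while Parp1 passed at 0.25 (0.0332), as it did without mutant replicate 3 at 0.22 (0.0471). Mbd4 lost its call without any 1 of the 6 libraries (adjusted p = 0.0631 to 0.119) or without the libraries that stand apart (0.0737), Lig3 without those (0.137) and without intact BE replicate 1 or 3 or mutant replicate 2 or 3 (0.0637 to 0.152), and Tdg without mutant replicate 2 (0.0648).

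**Figure D3:**
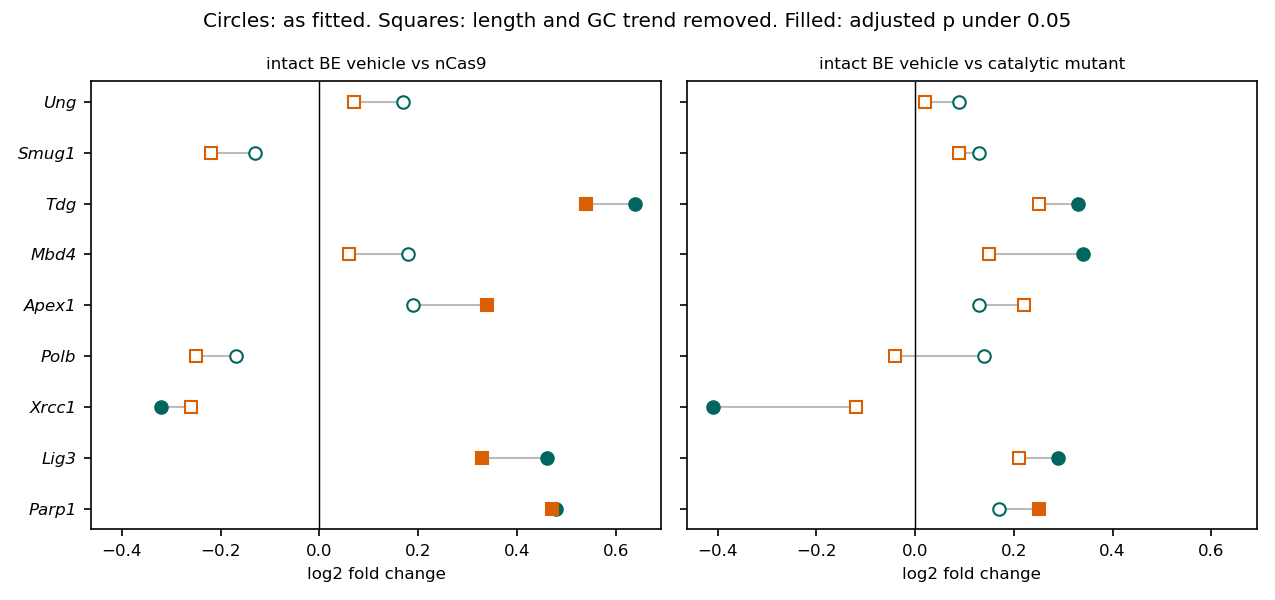
Log2 fold change (horizontal axis) of each of the 9 genes for intact BE under vehicle against nCas9 and against the catalytic mutant. Circles are values as fitted and squares those after removal of a trend on transcript length and GC content, filled where the adjusted p is under 0.05. Tdg, Parp1 and Lig3 stay filled against nCas9, and Xrcc1 moves from -0.41 to -0.12 against the mutant.

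The catalytic mutant against nCas9 asks what an editor without a working deaminase changes. Parp1 was higher, 1 of 9 genes against 4.30% of all genes tested, or 2.24% for higher genes alone. It had 263, 235 and 278 CPM in mutant libraries, against 192, 222 and 210 CPM in nCas9 libraries, with no overlap (21.3% of all genes tested did not overlap) and a log2 fold change of 0.31 ± 0.0749 (SE, edgeR adjusted p = 0.0121). Tdg had 76.2, 73.1 and 84 CPM in mutant libraries, against 57, 64.6 and 66.9 CPM in nCas9 libraries. Its log2 fold change of 0.31 ± 0.095 was as large as that of Parp1 and fell just short of the threshold (edgeR adjusted p = 0.0564), though it passed by DESeq2 (adjusted p = 0.0338). Xrcc1 averaged 57.9 ± 5.77 CPM in the mutant and 54.7 ± 1.91 CPM in nCas9 (SD, n = 3 each), with an interval for the log2 fold change of -0.12 to 0.29. Ung, Smug1, Mbd4, Apex1, Lig3 and Polb did not pass, with log2 fold changes of 0.08, -0.26, -0.16, 0.06, 0.17 and -0.31. Parp1 lost its call after the length and GC trend was removed (log2 0.22, adjusted p = 0.182), without nCas9 replicate 1 (0.0813), without mutant replicate 3 (0.0738) and without the libraries that stand apart (0.096).

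seBE was set against nCas9 with and without its inducer. Under rapamycin, which switches this editor on, Tdg and Parp1 were higher than in nCas9, 2 of 9 genes against 6.24% of all genes tested, or 3.82% for higher genes alone. Tdg had 87.5, 65.6 and 82 CPM in induced seBE libraries, against 57, 64.6 and 66.9 CPM in nCas9 libraries (log2 0.32 ± 0.0942, edgeR adjusted p = 0.0362). Replicate 2 of induced seBE lay within the range of nCas9, so these groups overlapped. Parp1 had 256, 236 and 257 CPM in induced seBE libraries, against 192, 222 and 210 CPM in nCas9 libraries, without overlap, as for 20.1% of all genes tested (log2 0.26 ± 0.0746, edgeR adjusted p = 0.0306). This comparison carries the drug as well as the editor, since nCas9 cells had no rapamycin. The other 7 genes did not pass, with log2 fold changes of 0.20 for Ung, 0.00 for Smug1, 0.06 for Mbd4, 0.03 for Apex1, -0.20 for Xrcc1, 0.28 for Lig3 and -0.03 for Polb. Lig3 passed without nCas9 replicate 3 (log2 0.35, adjusted p = 0.036).

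Under vehicle, with no inducer, the same pair was higher in seBE than in nCas9, 2 of 9 genes against 4.56% of all genes tested, or 2.64% for higher genes alone. Tdg had 86.5, 76.4 and 82 CPM in uninduced seBE libraries, against 57, 64.6 and 66.9 CPM in nCas9 libraries (log2 0.38 ± 0.0947, edgeR adjusted p = 0.0176). Parp1 had 267, 235 and 246 CPM in uninduced seBE, against 192, 222 and 210 CPM in nCas9 (log2 0.26 ± 0.0748, edgeR adjusted p = 0.0378). Both genes thus stood above nCas9 in uninduced cells without overlap between libraries, as was so for 22.5% of all genes tested. Lig3 averaged 67.8 ± 3.36 CPM in uninduced seBE and 56.8 ± 5.42 CPM in nCas9 without passing (log2 0.25, edgeR adjusted p = 0.131), and Xrcc1 averaged 53.5 ± 2.15 and 54.7 ± 1.91 CPM in these groups, with an interval of -0.24 to 0.17. Ung, Smug1, Mbd4, Apex1 and Polb did not pass, with log2 fold changes of 0.05, -0.06, 0.18, 0.11 and -0.25. All 4 comparisons against nCas9 use the same 3 nCas9 libraries. The call of Tdg ended without nCas9 replicate 1 or 2 or seBE replicate 1 or 3 for uninduced seBE (adjusted p = 0.0603 to 0.137), and without nCas9 replicate 1 or 2 or seBE replicate 1 or 3 for induced seBE (0.0907 to 0.177), where removal of the length and GC trend (0.104), a fit of the compared libraries alone (0.143) and leaving out the libraries that stand apart (0.0738) ended it too. That of Parp1 ended without any of 5 libraries for uninduced seBE (0.0541 to 0.254), without nCas9 replicate 1 or seBE replicate 1 or 3 for induced seBE (0.0665 to 0.159), with the trend removed in both (0.112 uninduced and 0.0642 induced), and for induced seBE in a fit of the compared libraries alone (0.114).

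Set against intact BE directly, seBE had no gene of the 9 past the threshold, with vehicle (3.99% of all genes tested passed) or with rapamycin (4.69%). At an unadjusted p under 0.05 there were 4 of 9 under vehicle, against 18.6% of all genes tested, and 2 of 9 under rapamycin, against 18.8%, and DESeq2 called 2 under vehicle, Xrcc1 (adjusted p = 0.0424) and Parp1 (0.0363), and 0 under rapamycin. In a fit of the compared libraries alone, Tdg (0.0204), Xrcc1 (0.0209) and Parp1 (0.0356) passed under vehicle, and Xrcc1 passed under rapamycin without seBE replicate 3 (0.0399). Under vehicle, Tdg averaged 81.6 ± 5.06 CPM in seBE and 97.8 ± 5.02 CPM in intact BE, a log2 fold change of -0.26 with an interval of -0.45 to -0.07 (edgeR adjusted p = 0.101). Xrcc1 averaged 53.5 ± 2.15 CPM in seBE and 43.8 ± 2.99 CPM in intact BE, a log2 fold change of 0.29 with an interval of 0.09 to 0.50 (edgeR adjusted p = 0.0909). The libraries of the editors did not overlap for these genes or for Parp1, Lig3 and Polb, 5 of the 9, as was so for 29.4% of all genes tested. Under rapamycin, Tdg averaged 78.4 ± 11.4 CPM in seBE and 82.4 ± 5.85 CPM in intact BE, and these overlapped. The log2 fold changes of Ung, Smug1, Mbd4, Apex1, Xrcc1, Lig3, Polb and Parp1 were 0.03, 0.03, -0.06, -0.12, 0.24, -0.23, 0.14 and -0.07 under rapamycin, and those of Ung, Smug1, Mbd4, Apex1, Lig3, Polb and Parp1 were -0.12, 0.07, -0.00, -0.08, -0.21, -0.08 and -0.22 under vehicle.

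Rapamycin also inhibits mTORC1, so it was compared with vehicle within each editor. In intact BE no gene of the 9 passed, against 3.32% of all genes tested; 2 of 9 had an unadjusted p under 0.05 in edgeR, against 14.4% of all genes tested, and DESeq2 called 0. These were Tdg, at 82, 88.5 and 76.8 CPM under rapamycin, against 99.1, 92.2 and 102 CPM under vehicle (log2 -0.25, interval -0.44 to -0.06, edgeR adjusted p = 0.167), and Parp1, at 258, 270 and 256 CPM under rapamycin, against 273, 294 and 306 CPM under vehicle (log2 -0.15, edgeR adjusted p = 0.333). In both, the libraries of the arms did not overlap, as was so for 22.3% of all genes tested. Ung, Smug1, Mbd4, Apex1, Xrcc1, Lig3 and Polb had log2 fold changes of 0.00, 0.10, -0.06, -0.03, -0.11, 0.05 and 0.00.

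In seBE, where the drug induces the editor, no gene of the 9 passed either, and edgeR called 0% of all genes tested, with 493 genes and 0 of the 9 at an unadjusted p under 0.05. DESeq2 called 1 gene in all and 0 of the 9. Tdg averaged 78.4 ± 11.4 CPM under rapamycin and 81.6 ± 5.06 CPM under vehicle, with an interval of -0.25 to 0.13 for the log2 fold change, and Parp1 averaged 250 ± 11.5 and 249 ± 15.8 CPM, with an interval of -0.15 to 0.15. Ung averaged 28.8 ± 2.8 CPM under rapamycin and 26 ± 1.89 CPM under vehicle, with an interval of -0.11 to 0.41. Smug1, Mbd4, Apex1, Xrcc1, Lig3 and Polb had log2 fold changes of 0.06, -0.13, -0.07, -0.17, 0.02 and 0.22. The drug effect in seBE minus that in intact BE passed for 0 of the 9 by edgeR or DESeq2, beside 0.187% of all genes tested by edgeR. At an unadjusted p under 0.05 in edgeR there were 0 of the 9, beside 6.97% of all genes tested. Its log2 value was 0.19 for Tdg (interval -0.08 to 0.46) and 0.16 for Parp1 (interval -0.06 to 0.37), and lay between -0.06 and 0.22 for Ung, Smug1, Mbd4, Apex1, Xrcc1, Lig3 and Polb.

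Lig3 and Xrcc1 encode proteins that bind each other, and their transcripts moved in opposite directions, so the ratio of their counts, which needs no library scaling, was taken in each library after these values were seen. Intact BE had 2.44, 2 and 1.62 Lig3 counts per Xrcc1 count under rapamycin and 1.98, 1.62 and 1.78 under vehicle. seBE had 1.27, 1.37 and 1.76 under rapamycin and 1.23, 1.27 and 1.3 under vehicle. The catalytic mutant had 1.25, 0.986 and 1.08, and nCas9 had 0.983, 0.97 and 1.16. Every intact BE library thus lay above every mutant and nCas9 library. Intact BE under vehicle averaged 1.79 ± 0.18, against 1.04 ± 0.108 in nCas9 (SD, n = 3 each). The genes were picked for their opposite changes, so these values are a description without a test. The ratio is not free of the trend on GC content, in which the 2 genes differ.

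**Figure D4:**
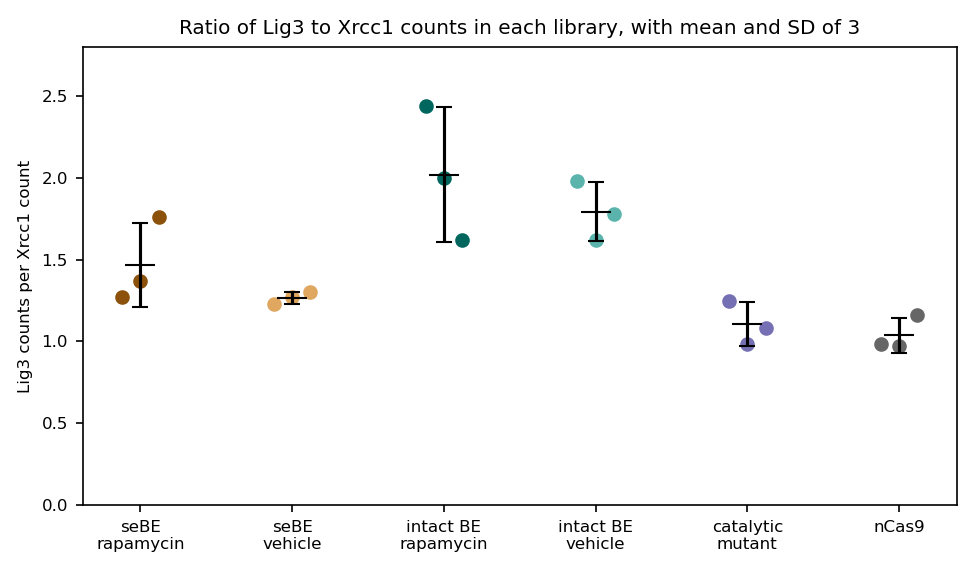
Lig3 counts per Xrcc1 count (vertical axis, from 0) in each library by group, with the mean and SD of 3. All intact BE libraries lie at 1.62 or above, and all catalytic mutant and nCas9 libraries at 1.25 or below.

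The wider pathway was described from lists of other genes for intact BE under vehicle against nCas9, where 13.1% of all genes tested were higher and 9.83% lower. The calls in the glycosylase list (2 of 7) and the end processing list (4 of 15) are shares near the 23.0% of all genes called. Of 7 other DNA glycosylases 0 were higher and 2 lower: Neil3, which acts on oxidised bases in single-stranded DNA, at 50.8 ± 8.41 CPM in intact BE and 68.5 ± 5.35 CPM in nCas9 (log2 -0.43, edgeR adjusted p = 0.00583), and Neil1 at 5.07 ± 1.34 and 8.4 ± 1.96 CPM (log2 -0.73, adjusted p = 0.0333). Of 15 genes for end processing and the break response 1 was higher and 3 were lower. The higher one was Parg, which removes poly(ADP-ribose), at 70.1 ± 10.3 CPM in intact BE and 49.4 ± 5.06 CPM in nCas9 (log2 0.50, edgeR adjusted p = 0.00102). Parp3 was lower (log2 -0.58, adjusted p = 0.00372), as was Hmces, which shields abasic sites in single-stranded DNA (log2 -0.26, adjusted p = 0.0284). Medians of these lists were -0.19 and -0.12, beside -0.04 over all genes.

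Of 16 genes of long patch synthesis 4 were higher and 2 lower in intact BE, beside the same 13.1% and 9.83% of all genes tested. The replicative ligase Lig1 stood at 191 ± 5.22 CPM in intact BE and 144 ± 5.16 CPM in nCas9 (log2 0.41, edgeR adjusted p = 5.84e-05), and the sliding clamp Pcna at 457 ± 19.5 and 347 ± 11 CPM (log2 0.40, adjusted p = 0.000133). Rfc1, of the clamp loader, was higher as well (log2 0.37, adjusted p = 0.00046). Of 9 genes that set the dUTP and nucleotide pool 3 were higher and 0 lower, Rrm1 by 0.49, Samhd1 by 0.36 and Rrm2 by 0.21 on the log2 scale (edgeR adjusted p = 1.39e-05, 0.00078 and 0.0335), while Dut, which keeps uracil out of DNA by breaking down dUTP, did not pass. Of 6 mitochondrial partners 1 was lower, the polymerase Polg (log2 -0.27, adjusted p = 0.0195). With the length and GC trend removed, the counts were 1 lower glycosylase, 5 higher and 1 lower long patch gene, and 2 higher nucleotide pool genes. No share of all genes called in that fit stands beside these counts, so they are a description only.

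**Figure D5:**
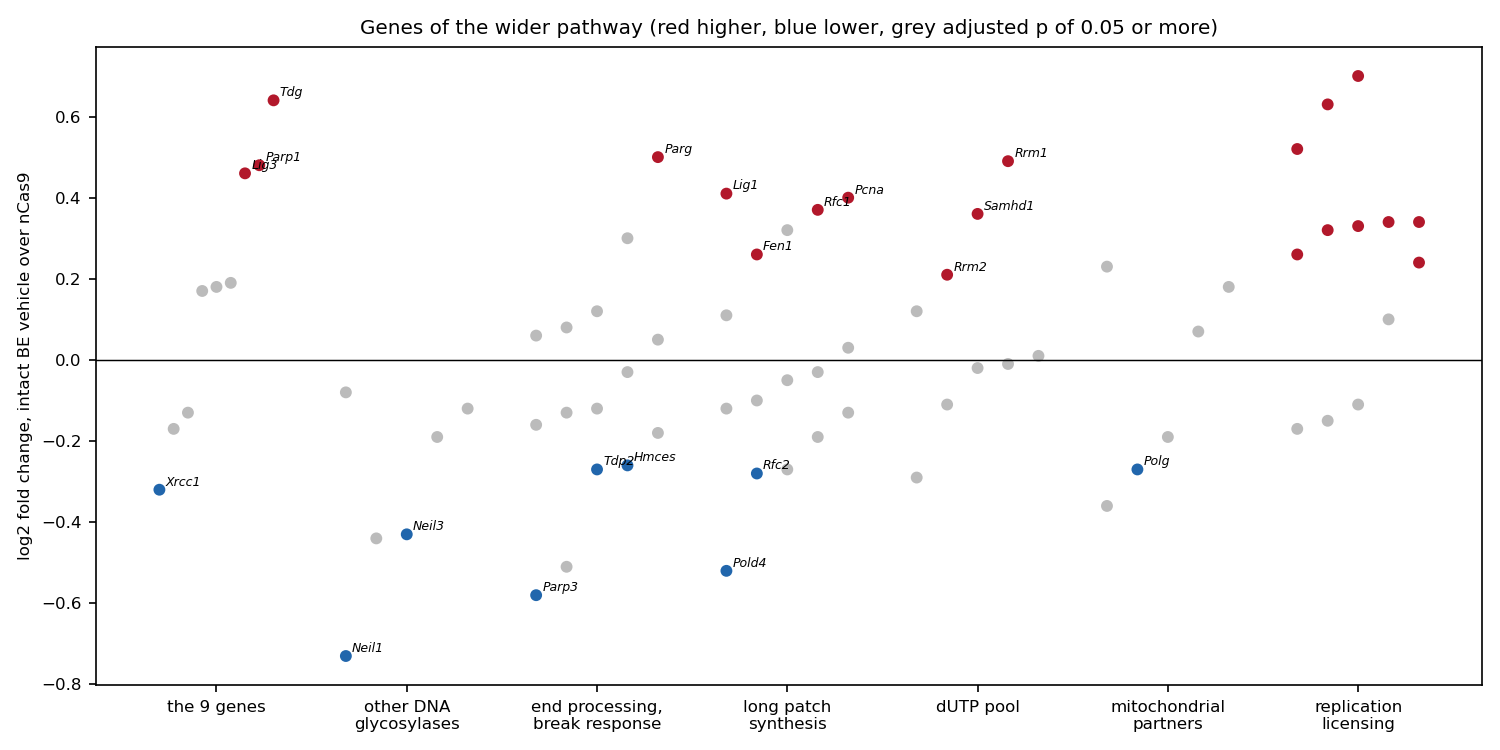
Log2 fold change of intact BE under vehicle over nCas9 (vertical axis) for the 9 genes, 5 lists of the wider pathway and the 13 genes of the replication licensing list. Points are genes, red where higher and blue where lower at an edgeR adjusted p under 0.05 and grey otherwise. Genes past the threshold are named except in the licensing list, and Neil2, at 0.209 CPM in intact BE, is left out.

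A list of 13 genes named for replication licensing also took in Cdc45, Gins1 and Gins2, which act at origin firing, and the cyclins Ccne1 and Ccne2. Of the 13, 9 were higher and 0 lower in intact BE against nCas9 (median log2 0.32), beside the same 13.1% and 9.83% of all genes tested. Cdt1, Gins1, Gins2 and Ccne1 did not pass (log2 -0.17, -0.15, -0.11 and 0.10). In the mutant against nCas9 1 of the 13 was higher, beside 2.24% of all genes tested. In intact BE against the mutant 4 were higher, beside 11.6% of all genes tested. Only 1, Cdt1, was lower (log2 -0.40, edgeR adjusted p = 0.00186), beside 9.33% of all genes tested. The summed level of the 13 genes was 3060 to 3120 CPM in intact BE under vehicle and 2690 to 2860 CPM under rapamycin. In seBE the sum was 2610 to 2910 CPM uninduced and 2580 to 2880 CPM induced. It was 2590 to 2900 CPM in the catalytic mutant and 2380 to 2570 CPM in nCas9. The part of these genes in the results for Tdg and Parp1 was not tested.

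For Tdg, Parp1 and Xrcc1, the 3 genes of the set with the smallest p in the 6-group test as fitted, the transcripts of most similar pattern were ranked by Pearson correlation of log2 CPM over the 18 libraries, among 9083 other genes. For Tdg these were E2f8, a repressor of the E2F family (r = 0.955), the helicase subunit Mcm2 (r = 0.936) and the nuclear pore gene Nup93 (r = 0.934). For Parp1 they were Mcm2 (r = 0.947), the mitochondrial isoleucyl-tRNA synthetase Iars2 (r = 0.933) and the cochaperone Stip1 (r = 0.920). For Xrcc1 they were the helicase Recql4 (r = 0.929), 1110038F14Rik (r = 0.919) and the mannosidase Man2c1 (r = 0.914). Within the set, Tdg and Parp1 had r = 0.92, Xrcc1 and Lig3 r = -0.72, and Ung at most 0.57 with any other gene of the 9, with Parp1. The libraries share 6 groups, depth and length trend, so these values describe the pattern and carry no test.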

How the data were processed

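Counts per gene were deposited by the authors as raw integers in 1 table of 18 libraries and 56748 Ensembl IDs, of which 52073 took a symbol from a table of IDs and names. Per the submitters' processing notes, fastp 1.0.1, STAR 2.7.1a, SAMtools 1.9, featureCounts from Subread 2.0.3 and DESeq2 were used with mouse genome GRCm39. The sources used here give neither annotation release, strand setting nor multi-mapping rule.

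Genes were filtered with filterByExpr, leaving 14985 with 99.93% of counts. A model with a mean for each of the 6 groups was fitted to the 18 libraries jointly, using edgeR 4.0.16 under R 4.3.3 (TMM scaling, robust quasi-likelihood F tests, Benjamini-Hochberg adjustment over all genes tested, threshold 0.05). SE is the size of a log2 fold change over the square root of F, and intervals are 95%. The common dispersion was 0.0176. Levels are CPM at TMM-adjusted library sizes, and levels per kilobase use exon length from GENCODE M21 on GRCm38. Length and GC content were modelled by splines (4 degrees of freedom each) and entered as offsets per group, and 97.4% of tested genes had both values. The edgeR fit was also run on simulated counts for intact BE under vehicle against nCas9. These had a single dispersion for all genes, no outlying library and no length or GC trend. That run therefore does not bear on calls that depend on such features.

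The 9 genes, the lists and the tests were chosen with earlier results of these data known. All 9 genes were named in each comparison described, and up to 3 per list past the threshold, by adjusted p. Alternatives were DESeq2 1.42.0, omitting the filter, requiring 1 CPM in 3 libraries, the compared libraries alone, a replicate block, trend removal without and with the block, and leaving out single libraries. A further fit, chosen once the data had been seen, omitted nCas9 replicate 2 and catalytic mutant replicate 3.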

Additional observations from a re-analysis of the deposited data

How the results depend on the processing

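Over 90 gene-by-comparison results and 1269 alternative values, 1191 kept their side of the threshold, 55 lost the call, 23 gained one and 0 reversed a called direction. Of those that kept their side, 41 changed sign, none of them called before or after: for Smug1 -0.13 became 0.13 in intact BE against nCas9 without nCas9 replicate 2 or without the 2 libraries, -0.26 became 0.01 in the mutant against nCas9 without nCas9 replicate 2, and 0.13 became -0.04 in intact BE against the mutant without mutant replicate 1, and for Polb 0.14 became -0.04 in intact BE against the mutant with the trend removed; the others were of 0.09 or less in size as fitted. Tdg, Parp1 and Lig3 kept their calls for intact BE under vehicle against nCas9 in all alternatives run. Of the 9 genes, the number called for the catalytic mutant against nCas9 was 1, and became 2 by DESeq2, 2 with no filter, 0 with the length and GC trend removed and 0 without the 2 libraries that stand apart. For intact BE under vehicle against the mutant it was 4, and 1 with the trend removed, Parp1, which was not among the 4. In that comparison Mbd4 lost its call with no filter (edgeR adjusted p = 0.0502). Without the 2 libraries that stand apart, Mbd4 and Lig3 lost theirs and Parp1 gained one (edgeR adjusted p = 0.045). For uninduced seBE against nCas9 the number called was 2, and 1 with the trend removed. For induced seBE against nCas9 it was 2, and 0 with the trend removed, 0 in the compared libraries alone and 1 without the 2 libraries. For seBE against intact BE under vehicle it was 0, and 2 by DESeq2 and 3 in the compared libraries alone. With each library left out in turn the number called ran from 3 to 5 for intact BE against nCas9, 0 to 3 for the mutant against nCas9, 1 to 3 for intact BE against the mutant, 0 to 2 for uninduced and 0 to 3 for induced seBE against nCas9, 0 to 1 for seBE against intact BE under rapamycin and 4 to 5 over the 6 groups. The cause of these changes was not tested. Over all genes, counts called that moved by over 1.5 times included the mutant against nCas9 (644, and 1061 by DESeq2, 91 with the trend removed, 39 without the 2 libraries), intact BE against the mutant (3141, and 1005 with the trend removed), seBE against intact BE under vehicle (598, and 1151 by DESeq2, 945 with no filter, 139 with the trend removed, 1790 in the compared libraries alone), uninduced seBE against nCas9 (684, and 1077 by DESeq2, 430 with the trend removed, 249 without the 2 libraries), induced seBE against nCas9 (935, and 521 with the trend removed, 304 in the compared libraries alone, 393 without the 2 libraries), seBE against intact BE under rapamycin (703, and 450 with the trend removed, 337 alone), intact BE under rapamycin against vehicle (497, and 849 alone), the drug effect in seBE minus that in intact BE (28, and 75 by DESeq2, 66 with no filter) and the 6-group test (4709, and 2808 with the trend removed). With each library left out in turn, the counts over all genes ran from 2343 to 3513 for intact BE against nCas9, 113 to 749 for the mutant against nCas9, 1696 to 3017 for intact BE against the mutant, 116 to 908 for uninduced and 296 to 1204 for induced seBE against nCas9, 47 to 514 for seBE against intact BE under vehicle, 257 to 1129 under rapamycin, 216 to 401 for rapamycin in intact BE, 0 to 1 in seBE and 11 to 54 for the difference in drug effect.

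Libraries of different groups share replicate numbers. In deviations from group means 1 of 45 same-number pairs correlated above 0.1 (-0.069 to 0.115). Of all libraries 0 correlated best with their own number in all other groups. With groups of 3, such values cannot exclude a batch of same-number libraries. With the replicate block, the number of the 9 called was 2 for the mutant against nCas9, 1 for seBE against intact BE under vehicle and 3 for induced seBE against nCas9, where Lig3 passed (log2 0.28, adjusted p = 0.0476). With the block and the trend removed together it was 0 for the mutant against nCas9, 1 (Parp1) for intact BE against the mutant, 1 for uninduced seBE against nCas9, 1 for seBE against intact BE under vehicle and 1 for induced seBE against nCas9. Over all genes the block gave 985 calls for the mutant against nCas9, 1089 for uninduced seBE against nCas9, 1173 for seBE against intact BE under vehicle, 1085 under rapamycin and 65 for the difference in drug effect. Smug1, with 113 to 301 counts a library, had the widest intervals of the 9.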

Other observations

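Under rapamycin in intact BE, 3 of 9 genes of the nucleotide pool were lower and 0 higher, beside 1.34% of all genes tested lower and 1.98% higher, with a median log2 fold change of -0.22, beside -0.00 over all genes tested. With the length and GC trend removed 2 were lower, and by DESeq2 4. In the same comparison the 13 genes of the licensing list all had negative values, none past the threshold, with a median of -0.20. Rrm2, a subunit of the reductase that makes deoxynucleotides, averaged 326 ± 9.66 CPM under rapamycin and 413 ± 8.55 CPM under vehicle (SD, n = 3 each; log2 -0.34, edgeR adjusted p = 0.0043). Its partner Rrm1 averaged 466 ± 28.2 CPM under rapamycin and 565 ± 17.4 CPM under vehicle (log2 -0.28, adjusted p = 0.0251). Dut, which breaks down dUTP, averaged 143 ± 11.5 CPM under rapamycin and 174 ± 7.45 CPM under vehicle (log2 -0.28, adjusted p = 0.0369). The gap-filling polymerase Poll (log2 -0.53, adjusted p = 0.0229) and the replicative polymerase subunit Pold2 (log2 -0.40, adjusted p = 0.0235) were the only other genes called in the 5 wider pathway lists, and both were lower. In seBE 0 genes of these lists passed for the same drug by edgeR, as was so for all genes tested (0%). The drug effect in seBE minus that in intact BE passed for 0 of the 9 nucleotide pool genes, beside 0.187% of all genes tested.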
